A study of Caenorhabditis elegans with 6 samples.

Results

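The spliceosome and its partner proteins were followed here as the 42 genes, of 46911 in the count tables, whose WormBase symbol joins snr, rsp, prp, rnp, sftb or uaf to a number. They comprise 7 snr genes for Sm proteins, 8 rsp genes for SR proteins, 13 prp genes, 9 rnp genes, 2 uaf genes and 3 sftb genes. RNA came from whole C. elegans at the fourth larval stage (L4). The mutant group was strain VC295, which carries unc-30(ok613) on chromosome IV, and the control group was the wild-type strain N2, with 3 libraries each. All animals were offspring of about 40 egg layers per 10 cm plate of E. coli OP50, left for 3 hours, and grew at 20 °C. The genotype label gives unc-30(ok613) for all 6 samples, so groups follow strain and title. VC295 is a single strain, and its other background mutations and the extent of the ok613 deletion are unknown from the sources used here, so an effect of unc-30 and one of strain background cannot be told apart.

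Introns are removed by the spliceosome, which assembles anew on each intron from small nuclear ribonucleoproteins (snRNPs). A ring of Sm proteins surrounds the RNA of the U1, U2, U4 and U5 particles. SR proteins bind exons and help to choose splice sites, and the Prp proteins, first found through yeast mutants defective in pre-mRNA processing, build, activate and remodel the machine. In C. elegans the same machinery also joins spliced leaders to many messages, and its genes are active in every tissue, including the germline.

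Mutant libraries held 20188810 to 24498576 counts and wild-type libraries 17318736 to 26377332, and ribosomal RNA genes took 7.65% to 12.7% and 0.394% to 8.20% of them. unc-30, a homeodomain factor of GABAergic motor neurons, had 20, 24 and 17 counts in the mutant libraries and 23, 26 and 17 in wild type, which does not check the labels, since the bases removed by ok613 are unknown here. Marker genes of muscle, intestine, neurons, epidermis, germline, oocytes and sperm were detected in every library of these whole animals. Levels below are counts per 1000000 (CPM) after trimmed-mean (TMM) scaling. TMM takes the bulk of genes as unmoved between libraries, and a change is the log2 fold change of mutant over wild type relative to it. Under total-count scaling the median log2 fold change of all tested genes shifts by -1.01, so every direction below is relative to other genes. A gene passed with an edgeR quasi-likelihood p under 0.05 after Benjamini-Hochberg adjustment over all 14506 genes tested. All 42 members were tested, with 76 to 10706 counts per library. The labels do not say whether the replicates are separate cultures, and p-values then measure only how far these libraries spread, which may be technical.

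Splicing genes split by family between the genotypes. Of the 42, 15 passed as higher in the mutant, 8 as lower and 19 did not pass; over all genes tested, 17.1% passed as higher and 20.9% as lower. Groups did not overlap for 20 members higher in the mutant and 8 lower, beside 24.4% and 28.2% of all genes. At least 2-fold falls numbered 5 among members, beside 18.8% of all genes. DESeq2 called 17 members higher and 7 lower (20.8% and 21.4% of all genes), and limma-voom 15 and 8 (18.6% and 20.4%). Of the 7 Sm genes 5 rose and 0 fell, of the 8 SR genes 6 rose and 0 fell, and of the 13 prp genes 1 rose and 7 fell, all relative to the TMM scale. The 14 rnp, uaf and sftb genes held 3 rises and 1 fall. Under total-count scaling 0 members passed as higher and 20 as lower (3.43% and 56.4% of all genes), and of the 15 rises those of rsp-2, rsp-3 and rnp-5 kept a positive value, while all 8 falls were still called. Median log2 fold changes under TMM were 0.63 for Sm, 0.73 for SR and -0.85 for prp genes, against -0.10 for all genes. Under total-count scaling they were -0.39, -0.28 and -1.87, against -1.11; that scaling moves all genes by about the same amount, so it cannot change the order of families. The medians also moved in a fit with trends in exonic length removed. They were then 0.43 for Sm, 0.88 for SR and -0.31 for prp genes. That of all genes moved too, from -0.10 to 0.07. That fit gave 2 rises among Sm, 6 among SR, 2 among prp and 6 among the rnp, uaf and sftb genes. Its 6 falls were all among prp genes. Calls were also lost when single libraries were left out, in fits that test fewer samples. Members passing as higher numbered 5, 6 and 7 when mutant replicate 2, mutant replicate 3 or wild-type replicate 3 was left out, in that order, while over all genes 1402, 1359 and 1584 passed in place of 2476. Those passing as lower numbered 3, 4 and 5 in the same fits, where 1424, 1432 and 1882 of all genes passed in place of 3035, and 4 when wild-type replicate 1 was left out, where 2555 did. Of the 23 calls, 8 were kept in each of the 6 fits that left out a library: those of snr-3, rsp-2, rsp-3, rsp-4, rnp-5, prp-3, prp-17 and prp-40.

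**Figure D1:**
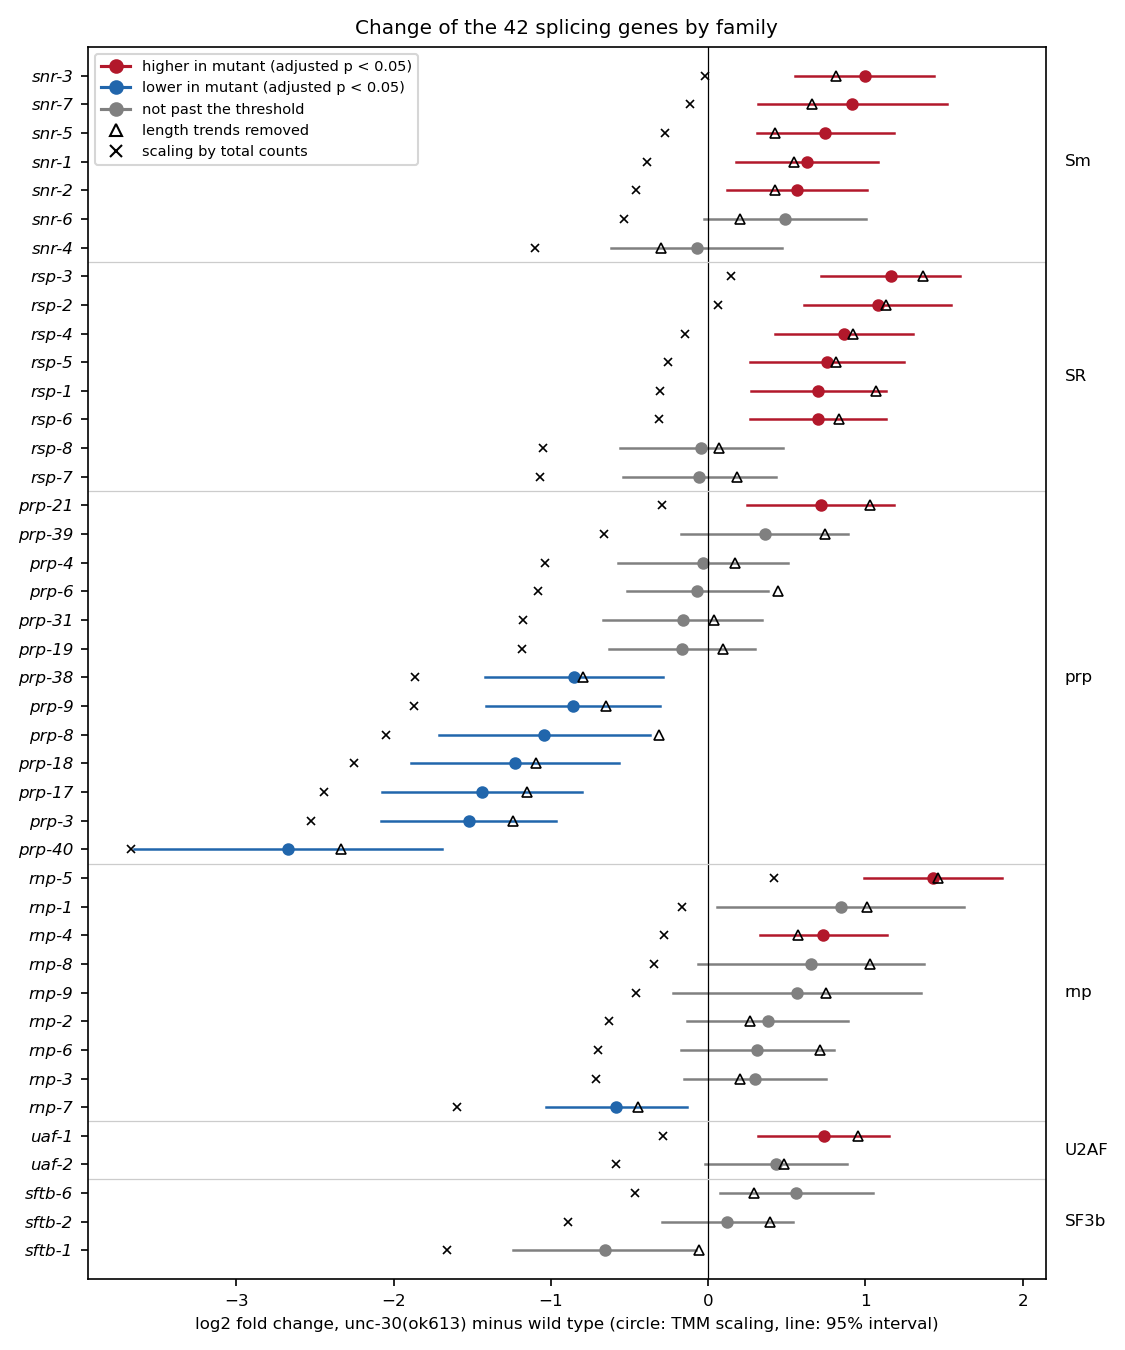
Log2 fold change of each of the 42 splicing genes (horizontal axis, mutant minus wild type), grouped by family, with the 95% interval of the TMM fit (circles and lines), the value with length trends removed (triangles) and the value under total-count scaling (crosses). Under TMM most snr and rsp genes lie right of 0 and 7 of 13 prp genes lie clearly left of it; under total-count scaling every point moves left by about the same amount and 12 of the 15 rises turn negative.

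Sm proteins form the ring shared by the spliceosomal snRNPs, and their genes are short, with 348 to 797 exonic bases. snr-3, for the SmD1 protein (chromosome II, 6488830 to 6489761, minus strand, WBcel235), had 204, 214 and 189 CPM in mutant replicates 1 to 3, against 112, 84.9 and 108 CPM in wild type. The groups were well apart, and it was 1.99-fold higher (log2 fold change 0.995 ± 0.194 as SE; adjusted p by edgeR = 0.00631). snr-7, for SmG (chromosome I, 2727014 to 2727545), had 118, 156 and 165 CPM in the mutant, against 88.9, 52.4 and 90.4 CPM in wild type, so that the lowest mutant library was still above the highest of wild type (log2 fold change 0.92 ± 0.26 as SE; adjusted p by edgeR = 0.0262). The genes for SmF (snr-5), SmD3 (snr-1) and SmB (snr-2) rose 1.68-fold, 1.55-fold and 1.48-fold (adjusted p by edgeR = 0.0175, 0.0358 and 0.0491). snr-6, for SmE, averaged 92.8 ± 12.4 CPM in mutant animals and 66.1 ± 12.8 CPM in wild type (± SD, n = 3 per group; adjusted p by edgeR = 0.116). snr-4, for SmD2, did not pass, with 91.5, 115 and 106 CPM in mutant animals and 129.9, 78.5 and 120.2 CPM in wild type, a log2 fold change of -0.07 with a 95% interval of -0.61 to 0.47. Under total-count scaling all 7 values were negative, from -1.10 for snr-4 to -0.02 for snr-3.

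The Sm rises were modest, and part of them moved with gene length. Short genes were higher in the mutant across the table: the median log2 fold change was 0.45 for the 1093 tested genes of up to 500 exonic bases, 0.22 for those of 500 to 1000 bases and -0.70 for those over 5000. With length trends removed, snr-3 and snr-1 still passed (log2 fold changes 0.81 and 0.55; edgeR adjusted p = 0.0111 and 0.0423), whereas snr-7, snr-5 and snr-2 did not (0.0557, 0.113 and 0.113). Leaving out libraries ended the calls of snr-7 (mutant replicate 2 or 3; adjusted p = 0.0697 and 0.0803), snr-5 (mutant 2 or 3 or wild type 3; 0.0506 to 0.0778), snr-2 (mutant 2, mutant 3, wild type 2 or wild type 3; 0.104 to 0.146) and snr-1 (any library but mutant replicate 1; 0.0606 to 0.122), all by edgeR. The annotation gives snr-1 96 exonic bases in common with Y116A8C.43 on the same strand, whose reads cannot be separated from it with certainty.

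SR proteins carry an RNA recognition motif and a tail rich in arginine and serine, and they were the family with the highest share of rises. rsp-3, the counterpart of human SF2/ASF (chromosome III, 12686182 to 12687922, minus strand), held more counts than other SR genes, with 529.8, 545 and 501 CPM in the mutant, against 235, 271 and 199 CPM in wild type. It was 2.24-fold higher, with no overlap between the groups (log2 fold change 1.16 ± 0.19 as SE; adjusted p by edgeR = 0.00402). rsp-2 (chromosome II, 11451441 to 11452955, minus strand) had 159, 157 and 148 CPM in the mutant, against 74.2, 86.0 and 59.3 CPM in wild type, a 2.11-fold difference (adjusted p by edgeR = 0.00590). rsp-4, the SC35 counterpart, rose 1.82-fold and averaged 119.8 ± 13.8 CPM in mutant animals and 65.9 ± 4.70 CPM in wild type (± SD, n = 3 per group; adjusted p by edgeR = 0.0102). rsp-5, rsp-1 and rsp-6 rose 1.69-fold, 1.63-fold and 1.62-fold (adjusted p by edgeR = 0.0252, 0.0204 and 0.0208). Under total-count scaling these 6 had log2 fold changes of -0.32 to 0.15, and 0 passed.

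The rest of the SR family did not pass. rsp-8, a counterpart of the splicing regulator Tra2 of flies and mammals, had 107, 99.4 and 83.6 CPM in mutant animals and 87.3, 126 and 84.9 CPM in wild type, and the groups overlapped (95% interval of the log2 fold change -0.56 to 0.48). rsp-7 was alike, with 70.8, 59.5 and 58.0 CPM in mutant animals and 77.6, 62.1 and 56.05 CPM in wild type (95% interval -0.54 to 0.43). SR genes have 1065 to 2347 exonic bases, near the middle of the table, and all 6 rises passed with length trends removed (log2 fold changes 0.81 to 1.36). The calls of rsp-1, rsp-5 and rsp-6 each needed several libraries: they were lost without mutant replicate 2, mutant replicate 3 or wild-type replicate 3, that of rsp-1 also without wild-type replicate 1 and that of rsp-5 without wild-type replicate 2 (adjusted p by edgeR = 0.0531 to 0.0876). rsp-2 and rsp-1 lie 406 bases apart and diverge, as do snr-3 and rsp-5 at 403 bases, so the members of a pair share their upstream region. All 4 rose, and whether the shared region has a part in that was not tested.

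**Figure D2:**
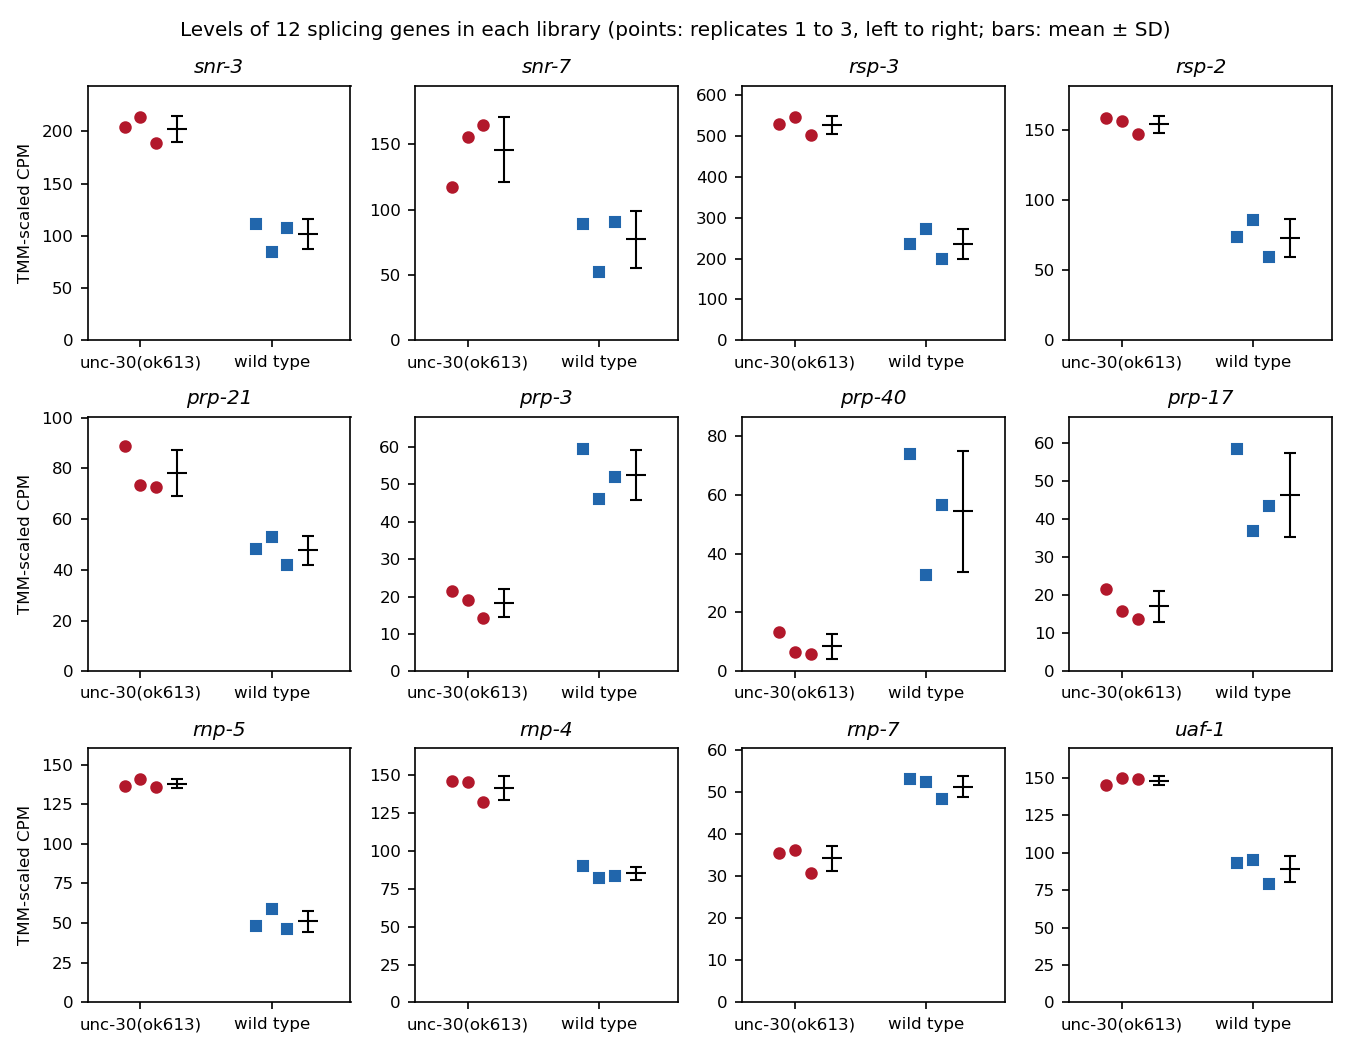
Level of 12 splicing genes in each library (vertical axis, TMM-scaled CPM from 0), mutant on the left and wild type on the right of each panel, with points for replicates and bars for mean ± SD. The groups do not overlap in any of the 12 panels: rnp-5 lies at 136 to 141 CPM in mutant animals and 46.6 to 58.7 CPM in wild type, and prp-40 at 5.76 to 13.4 CPM and 32.8 to 73.8 CPM; under total-count scaling snr-3, snr-7, prp-21, rnp-4 and uaf-1 have negative log2 fold changes.

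The prp genes moved mostly the other way. prp-40, whose yeast counterpart belongs to the U1 snRNP and bridges the ends of the intron (chromosome III, 9522075 to 9525454, plus strand), had 13.4, 6.43 and 5.76 CPM in the mutant, against 73.8, 32.8 and 56.5 CPM in wild type. The highest mutant library held less than the lowest of wild type, a 6.37-fold fall (log2 fold change -2.67 ± 0.43 as SE; adjusted p by edgeR = 0.00363). prp-3, a protein of the U4/U6 particle (chromosome III, 10424113 to 10427982, minus strand), had 21.5, 19.2 and 14.2 CPM in the mutant, against 59.5, 46.1 and 52.0 CPM in wild type, a 2.87-fold fall with no overlap between the groups (log2 fold change -1.52 ± 0.24 as SE; adjusted p by edgeR = 0.00360). prp-17 and prp-18, both factors of the second step of splicing in yeast, fell 2.71-fold and 2.34-fold (adjusted p by edgeR = 0.00612 and 0.0128). prp-38, which in yeast is needed to activate the assembled spliceosome, fell 1.81-fold, as did prp-9 (adjusted p by edgeR = 0.0269 and 0.0244). Under total-count scaling all these falls were larger, from -1.87 to -3.67 on the log2 scale.

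prp-8, the core scaffold of the catalytic centre and the longest member at 7407 exonic bases (chromosome III, 8164373 to 8172710), had 139, 74.3 and 95.8 CPM in the mutant, against 273, 204 and 158 CPM in wild type. Its groups were apart but wide, and the 2.06-fold fall (adjusted p by edgeR = 0.0245) became -0.31 on the log2 scale with length trends removed (adjusted p = 0.224). The falls of prp-40, prp-3, prp-17, prp-18, prp-9 and prp-38 passed there too, with log2 fold changes of -2.34 to -0.65. The smaller falls lost their calls in some fits that left out a library. The call of prp-8 was lost without mutant replicate 2, mutant replicate 3 or wild-type replicate 1 (adjusted p by edgeR = 0.125, 0.115 and 0.0677), those of prp-9 and prp-38 without these or wild-type replicate 3 (0.0651 to 0.139), and that of prp-18 without mutant replicate 2 (0.0707).

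Other prp genes did not pass, with 1 exception. prp-6, prp-31 and prp-4, which like prp-3 are parts of the U4/U6.U5 tri-snRNP, had log2 fold changes of -0.07, -0.16 and -0.03, and their intervals together ran from -0.67 to 0.51. prp-19, a ubiquitin ligase of the activated spliceosome, averaged 99.6 ± 10.2 CPM in mutant animals and 112 ± 18.0 CPM in wild type (± SD, n = 3 per group; adjusted p by edgeR = 0.539). prp-39 had 108, 74.8 and 104 CPM in mutant animals and 90.4, 68.2 and 65.0 CPM in wild type, overlapping groups that did not pass (adjusted p by edgeR = 0.249), although it passed with length trends removed (log2 fold change 0.74; adjusted p = 0.0230). prp-21 was the one that rose. It had 88.8, 73.5 and 72.8 CPM in the mutant, against 48.3, 53.1 and 41.8 CPM in wild type (chromosome II, 484866 to 490403), that is 0.72 ± 0.20 on the log2 scale (SE; adjusted p by edgeR = 0.0254), and the value became 1.03 with length trends removed and -0.29 under total-count scaling. Leaving out mutant replicate 2, mutant replicate 3, wild-type replicate 1 or wild-type replicate 3 ended its call (adjusted p by edgeR = 0.0521 to 0.0842).

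The subunits of SF3a differed in direction. prp-21, prp-9 and repo-1 encode this part of the U2 snRNP: prp-9 fell while prp-21 rose, and repo-1, named after its values were seen, rose to 48.6 ± 4.91 CPM in the mutant, against 31.3 ± 2.26 CPM in wild type (± SD, n = 3 per group; adjusted p by edgeR = 0.0382), and its value turned to -0.38 under total-count scaling. The call of repo-1 was lost with length trends removed (0.0794) and without any library but mutant replicate 1 (adjusted p by edgeR = 0.0542 to 0.110). The sftb genes for SF3b, the larger U2 subcomplex, held no call. sftb-6 led them in level per kilobase of exon, with 44.0, 47.8 and 47.3 CPM in the mutant, against 36.7, 26.5 and 31.05 CPM in wild type, groups that did not overlap (log2 fold change 0.56 ± 0.21 as SE; adjusted p by edgeR = 0.0683). sftb-1, the SF3B1 counterpart, had 87.0, 50.7 and 58.2 CPM in mutant animals and 114, 110.0 and 85.5 CPM in wild type, which overlapped slightly (log2 fold change -0.66 ± 0.26 as SE; adjusted p by edgeR = 0.0720), and its value was -0.06 with length trends removed. sftb-2, the SF3B2 counterpart, had a log2 fold change of 0.12 (95% interval -0.29 to 0.54).

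U2AF reads the 3′ splice site. uaf-1, its large subunit (chromosome III, 1062794 to 1076555, minus strand), had 145, 150.1 and 149 CPM in the mutant, against 93.3, 94.9 and 79.3 CPM in wild type. The mutant values were very close together and all above wild type (log2 fold change 0.73 ± 0.18 as SE; adjusted p by edgeR = 0.0151), a call lost without mutant replicate 2, mutant replicate 3 or wild-type replicate 3 (0.0541 to 0.0664) and a value of -0.29 under total-count scaling. uaf-2, the small subunit, averaged 99.7 ± 12.2 CPM in mutant animals and 74.0 ± 7.92 CPM in wild type (± SD, n = 3 per group; adjusted p by edgeR = 0.117), again with no overlap.

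The rnp genes encode RNA-binding proteins of several complexes, and the exon junction factors among them were the ones that rose under TMM. rnp-5, the counterpart of the mammalian exon junction factor RNPS1 (chromosome III, 852801 to 853909, minus strand), had 137, 141 and 136 CPM in the mutant, against 48.3, 58.7 and 46.6 CPM in wild type. The 2.70-fold rise was the largest of the 42 genes under TMM (log2 fold change 1.43 ± 0.19 as SE; adjusted p by edgeR = 0.00267), and under total-count scaling it was 0.42 and did not pass. rnp-4, the Y14 protein of the exon junction core (chromosome III, 4406286 to 4407323), had 146, 146 and 133 CPM in the mutant, against 89.8, 82.1 and 83.5 CPM in wild type (log2 fold change 0.73 ± 0.18 as SE; adjusted p by edgeR = 0.0141). All mutant values again exceeded those of wild type, but the call did not survive leaving out mutant replicate 2 (adjusted p = 0.0609), and the value was -0.28 under total-count scaling. rnp-7, the U1 snRNP protein known as U1-70K in mammals (chromosome III, 7158912 to 7161155, minus strand), went the other way, with 35.5, 36.3 and 30.8 CPM in the mutant, against 53.1, 52.4 and 48.4 CPM in wild type (log2 fold change -0.58 ± 0.20 as SE; adjusted p by edgeR = 0.0457). That call was weak: it was lost in each of the 6 fits without a library (0.0784 to 0.245) and with length trends removed (0.0938).

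The remaining rnp genes did not pass under TMM. With length trends removed rnp-6, rnp-8 and rnp-1 passed as higher (log2 fold changes 0.71, 1.03 and 1.01, adjusted p by edgeR = 0.0161, 0.0175 and 0.0429). rnp-2 and rnp-3, neighbours 72 bases apart on chromosome IV that encode RNA-binding proteins of the U1 and U2 snRNPs, had log2 fold changes of 0.38 and 0.30, each without overlap between the groups. rnp-6, the PUF60 counterpart, had 0.31 (95% interval -0.17 to 0.80). rnp-9, the member with the lowest level in wild type per kilobase, averaged 8.91 ± 2.73 CPM in mutant animals and 6.03 ± 1.64 CPM in wild type (± SD, 3 libraries each). rnp-8 encodes a partner of the germline poly(A) polymerase GLD-2, and it was uneven within groups, with 157, 78.3 and 87.0 CPM in mutant animals and 87.5, 62.7 and 54.8 CPM in wild type (log2 fold change 0.65 ± 0.31 as SE; adjusted p by edgeR = 0.130). rnp-1 showed a like pattern, with 69.1, 41.6 and 43.3 CPM in mutant animals and 41.8, 18.9 and 25.2 CPM in wild type (adjusted p by edgeR = 0.0830). In both genes replicate 1 was the highest library of its group, as it also was in prp-3, prp-8, prp-17 and prp-40, among others. rnp-8 has 310 exonic bases that overlap icpp-55 on the opposite strand, which matters because the sources used here do not give the strand setting of the counting; apart from that of snr-1, other exonic overlaps of members span at most 73 bases.

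Ratios of raw counts within a library need no scaling between libraries, but they carry the trend with gene length, since Sm genes have 348 to 797 exonic bases and prp genes 1084 to 7407. Summed Sm counts were 1.27, 1.96 and 1.72 times the summed prp counts in mutant replicates 1 to 3, against 0.733, 0.662 and 0.949 times in wild type. Summed SR counts were 1.98, 2.43 and 2.15 times the prp counts in the mutant, against 0.803, 1.08 and 0.931 times in wild type. prp-8, whose fall did not pass with length trends removed, made up 12.3% to 17.9% of the prp counts in mutant libraries and 19.98% to 25.8% in wild type. Leaving it out, a choice made after seeing the data, gave Sm to prp ratios of 1.94 ± 0.350 in mutant libraries and 1.01 ± 0.160 in wild type, and SR to prp ratios of 2.58 ± 0.181 in mutant libraries and 1.22 ± 0.177 in wild type (SD over 3 libraries). Neither pair of groups overlapped, with or without prp-8, while the ratio of Sm to SR counts did overlap, at 0.747 ± 0.0921 in the mutant and 0.849 ± 0.211 in wild type (SD, n = 3 each). Ratios between genes are given with no test, and the genes were paired after their values were seen. prp-21 and prp-40 have similar exonic lengths of 2095 and 2286 bases, and prp-21 counts were 6.64, 11.4 and 12.6 times those of prp-40 in the mutant, against 0.655, 1.62 and 0.739 times in wild type. rnp-5 and rnp-7, of 1010 and 1245 bases, gave 3.85, 3.88 and 4.42 in the mutant, against 0.910, 1.12 and 0.962 in wild type. snr-3 to snr-4, within the Sm ring, gave 2.23, 1.86 and 1.77 in the mutant, against 0.860, 1.08 and 0.894 in wild type, again with no overlap.

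**Figure D3:**
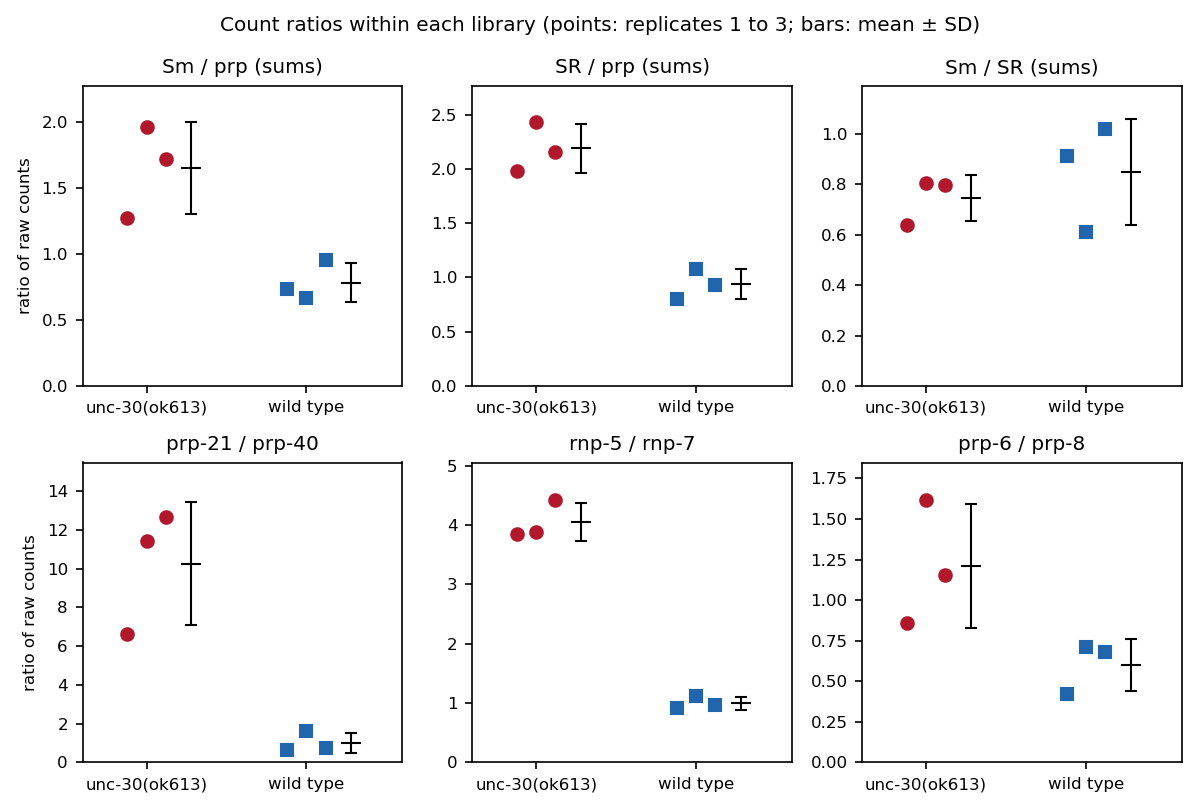
Ratios of raw counts within each library (vertical axes from 0), mutant left and wild type right, with points for replicates and bars for mean ± SD. Sm to prp and SR to prp sums lie at 1.27 to 1.96 and 1.98 to 2.43 in the mutant, above 0.662 to 0.949 and 0.803 to 1.08 in wild type, whereas Sm to SR overlaps. The ratios prp-21 to prp-40, rnp-5 to rnp-7 and prp-6 to prp-8 also lie higher in the mutant. prp-6 and prp-8 differ in length, with 3043 and 7407 exonic bases, so their ratio carries the length trend, and neither gene passed with length trends removed.

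Members were set beside all genes of their length class. The 11 members of up to 1000 exonic bases had 6 rises and 0 falls, beside 26.1% and 13% of 4500 tested genes of that length. Those of 1000 to 2000 bases, 22 in number, had 7 rises and 6 falls, beside 15.2% and 19.6% of 6185 genes. The 9 members over 2000 bases had 2 rises (rsp-1 and prp-21) and 2 falls (prp-40 and prp-8), beside 9.50% and 32.3% of 3811 genes. Removing length trends left 16 rises and 6 falls among members, where 20.9% and 17.3% of all genes passed, and 12 of the 15 rises and 6 of the 8 falls stood in both fits. The mutant libraries differ from wild type in this trend over the whole table, and its part in the family differences beyond that fit was not tested.

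**Figure D4:**
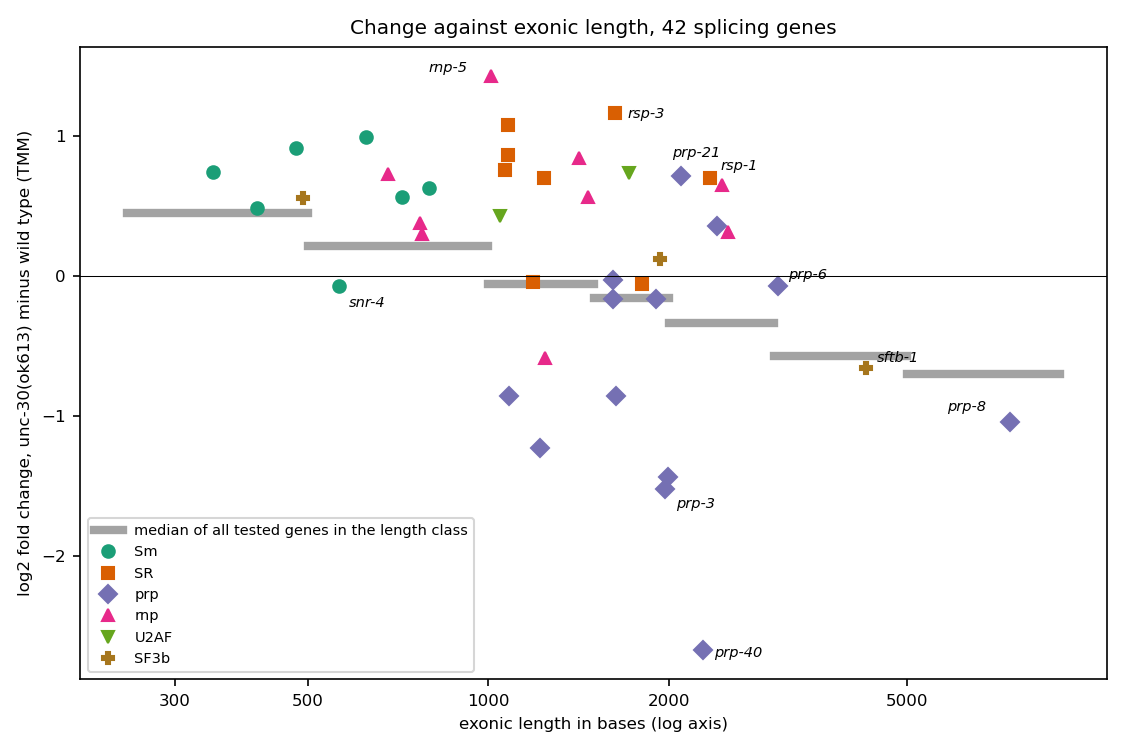
Log2 fold change under TMM (vertical axis) against exonic length in bases (log axis) for the 42 splicing genes, marked by family, with grey bars for the median of all tested genes in each length class (the outermost classes extend beyond the bars). The bars step down from 0.45 at up to 500 bases to -0.70 over 5000; near 2000 bases prp-3 and prp-40 lie far below the bars and prp-21 and rsp-1 above them, though prp-21 and rsp-1 turn negative under total-count scaling.

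Per kilobase of exon snr-5, rsp-3 and snr-3 were the most abundant members in mutant libraries. snr-5 led in both groups, at 348 ± 40.97 CPM per kilobase in the mutant and 208 ± 14.5 in wild type (SD, n = 3 each). rsp-3 had 323 ± 13.6 in the mutant and 145 ± 22.2 in wild type, rank 2 and rank 8 among the 42. snr-4 had rank 9 in the mutant and rank 2 in wild type, and prp-40 rank 42 and rank 35, at 3.73 ± 1.85 and 23.8 ± 8.99 CPM per kilobase. prp-18, at 5.18 ± 0.536 and 12.1 ± 3.30 CPM per kilobase, was rank 41 in both groups. Replicates varied by a median of 11.7% (coefficient of variation of CPM) in the mutant and 15.7% in wild type; rnp-5 and uaf-1 were among the steadiest in the mutant, at 1.94% and 1.83%, and prp-40 varied most, by 49.5%.

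Related genes of the splicing pathway, listed with earlier results of these data known, are read beside the shares of all genes, 17.1% higher and 20.9% lower under TMM and 20.9% and 17.3% with length trends removed. Under total-count scaling those shares were 3.43% and 56.4%. Of 10 LSm and SMN complex genes, which encode the ring of U6 and the factors that load Sm rings, 6 rose and 0 fell under TMM (median log2 fold change 0.68), and under total-count scaling 0 rose and 2 fell. These genes are short, of 276 to 892 exonic bases, and with length trends removed 1 rose and 0 fell (median 0.43). lsm-5 rose 2.37-fold, to 51.8 ± 2.59 CPM in the mutant, against 21.8 ± 2.86 CPM in wild type (± SD, n = 3 per group; adjusted p by edgeR = 0.00416), and lsm-4 rose 1.82-fold (0.0411), a call lost without any single library (0.0539 to 0.0883); their values under total-count scaling were 0.23 and -0.14. Of 39 other spliceosome genes, 5 rose and 13 fell (median -0.34), and under total-count scaling 0 rose and 30 fell. With length trends removed 8 rose and 11 fell, and the median turned to 0.11. mog-7 fell 5.80-fold, to 5.97 ± 2.40 CPM in mutant animals, against 34.6 ± 9.57 CPM in wild type, and ddx-46, the counterpart of the yeast helicase Prp5, fell 3.77-fold, to 19.7 ± 2.51 CPM in mutant animals, against 74.3 ± 5.75 CPM in wild type (± SD, n = 3 per group; adjusted p by edgeR = 0.00300 and 0.00194). rsr-1 and snrp-40.1 rose 2.01-fold and 1.80-fold (adjusted p by edgeR = 0.0185 and 0.0324), both with values below 0 under total-count scaling and with calls lost without mutant replicate 2, mutant replicate 3 or wild-type replicate 3 (0.0553 to 0.108).

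The exon junction and nonsense-mediated decay list divided within itself. Of its 12 genes 2 rose and 7 fell (median -1.24), and under total-count scaling 0 rose and 9 fell. Removing length trends gave 4 rises and 5 falls (median -0.66). The rises were those of the exon junction core, eif-4A3 at 2.74-fold and mag-1, the partner of RNP-4, at 2.10-fold (adjusted p by edgeR = 0.00438 and 0.00437), with values of 0.43 and 0.06 under total-count scaling, where neither passed. The falls were led by smgl-1 at 3.99-fold and smg-1, the kinase of the decay pathway, at 3.65-fold (adjusted p by edgeR = 0.00300 and 0.0115); the call of smg-1 was lost with length trends removed (0.0505) and without mutant replicate 2 or 3 (0.0510 and 0.0519). Of 21 regulators of tissue-specific splicing 5 rose and 0 fell (median 0.27). Under total-count scaling 1 rose and 11 fell, beside 3.43% and 56.4% of all genes. Removing length trends gave 10 rises and 0 falls (median 0.56). sym-2 rose 5.09-fold and unc-75, a neuronal regulator of the CELF type, rose 4.37-fold from a low level, at 6.20 ± 2.94 CPM in mutant animals and 1.41 ± 0.411 CPM in wild type (± SD, n = 3 per group; adjusted p by edgeR = 0.00351 and 0.00776). Under total-count scaling sym-2 passed (1.31) and unc-75 did not (1.07; adjusted p = 0.0526). Of 4 genes of spliced-leader trans-splicing, sna-2 and sna-3 fell, by 4.04-fold and 2.58-fold (adjusted p by edgeR = 0.00478 and 0.00997), the call of sna-3 being lost without mutant replicate 2 or 3 (0.0515 and 0.0562).

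**Figure D5:**
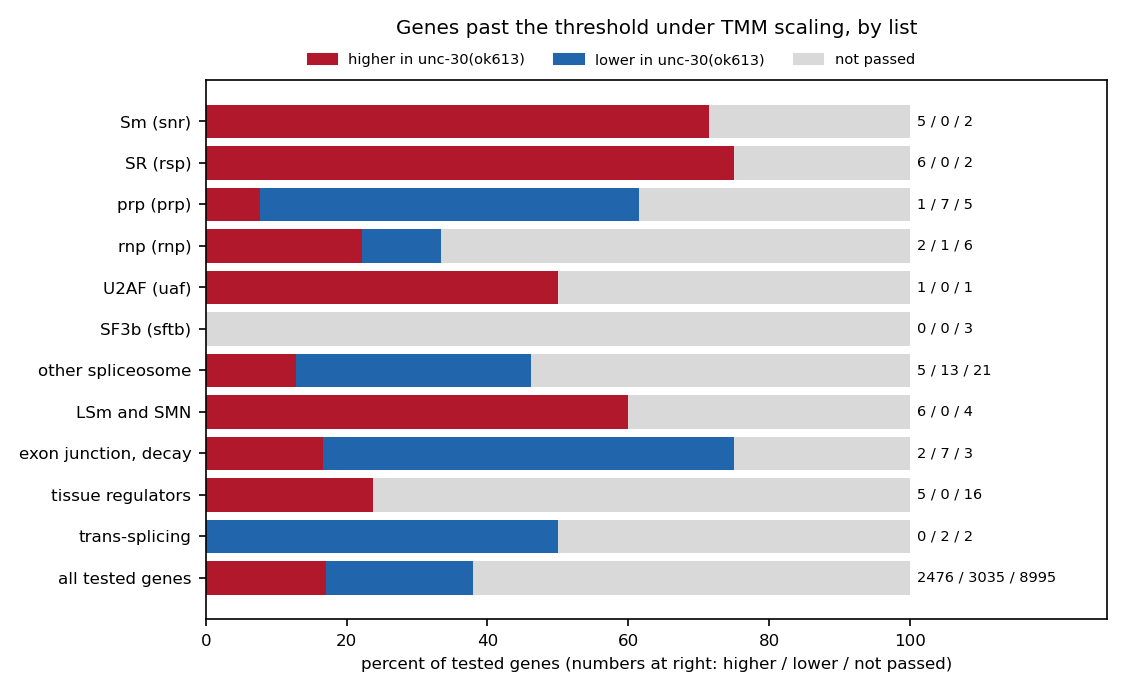
Percent of tested genes in each family or list (horizontal axis) that passed as higher (red), passed as lower (blue) or did not pass (grey) under TMM, with the numbers at the right. Rises fill most of the Sm, SR and LSm bars and falls most of the called part of the prp, other spliceosome and decay bars; under total-count scaling no family or list shown keeps a rise except the tissue regulators, with 1, beside 498 of all tested genes.

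Marker lists of tissues differed in how they compared between genotypes, and their counts under TMM are read beside the 17.1% and 20.9% of all genes that passed as higher and lower. In bulk RNA of whole animals, fewer cells of a type and less RNA per cell cannot be told apart. Summed CPM of 10 muscle genes was 19439 to 26916 in mutant libraries and 6998 to 12015 in wild type, with 8 rises and 1 fall. Summed CPM of 20 germline genes was 2497 to 3844 in mutant libraries and 2552 to 3339 in wild type, with 0 rises and 4 falls, ranges that overlapped, and that of 10 sperm genes 211 to 238 and 207 to 365, with 5 falls. Summed CPM of 9 intestine genes was 7706 to 11709 in mutant libraries and 2402 to 4157 in wild type, with 4 rises and 0 falls. For 10 neuron genes it was 637 to 864 and 257 to 319 CPM, with 3 rises and 1 fall. The rises of snb-1, egl-3 and egl-21, picked out after their values were seen, carried that sum, while 5 of the 10 neuron genes had negative log2 fold changes and the median was 0.08. For 10 epidermis genes it was 7724 to 13615 and 1772 to 5320 CPM, with 2 rises and 1 fall. Oocyte genes, 10 in number with 0 calls, stood out in replicate 1 of each group. They summed to 4002 CPM in mutant replicate 1, against 823 and 901 in the others. In wild-type replicate 1 they summed to 3182 CPM, against 1237 and 1049. These were the libraries in which rnp-1 and rnp-8 were highest. Members of other families were highest there too, among them prp-3, prp-8, prp-17, prp-40, rsp-5 and sftb-1. No marker list was at 0 in any library. These sums are TMM-scaled, so the gaps between genotypes depend on that scale. Under total-count scaling muscle had 0 rises and 2 falls, intestine 1 and 3, neuron 2 and 7, and epidermis 0 and 3. Germline then had 0 rises and 17 falls, sperm 0 and 10, and oocyte 0 and 0, beside 3.43% and 56.4% of all genes. The part of these tissues in the splicing gene values was not tested. With both mutant replicate 1 and wild-type replicate 2 left out, the libraries nearest the other genotype on the first principal component and a choice made after seeing the data, 16 members passed as higher and 8 as lower, beside 23.7% and 26.6% of all genes.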

How the data were processed

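Per the labels' protocols, total RNA of whole L4 animals was extracted, treated with DNase and sequenced. The deposited values are raw read counts for each WormBase gene identifier. HTSeq and DESeq2 are named per the submitters' processing notes, without versions. The sources used here give no aligner, build, annotation or strand setting. Symbols, exonic lengths (union of exons) and coordinates are from Ensembl release 115 of WBcel235, in which 46863 of 46911 identifiers were found. Counts were tested with edgeR 4.0.16 (R 4.3.3): TMM factors (0.654 to 0.760 in the mutant, 1.38 to 1.49 in wild type), default expression filter, robust quasi-likelihood fit, group as the only term, checked on simulated data. The standard error is the log2 fold change divided by the square root of F. Length trends were removed with a loess curve (span 0.3) per library, used as offset. DESeq2 1.42.0 and limma 3.58.1 were alternatives. No replicate pair was close to sampling noise (chi-square 31.9 to 255 per degree of freedom), so none was treated as a repeated deposit. Of the listed symbols, 4 had no match. The members and lists were chosen with earlier results of these data known. Values per library are given for the 2 largest rises and falls that passed in each family, for the member highest per kilobase where none passed, and, outside that rule, for members that help to describe a family; lists get up to 2 examples each way.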

Additional observations from a re-analysis of the deposited data

How the results depend on the processing

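The scale decides absolute direction. Under scaling by total counts, 498 genes were called higher and 8175 lower in place of 2476 and 3035, and 0 and 20 members in place of 15 and 8; log2 fold changes that turned negative were -0.020 (snr-3), -0.39 (snr-1), -0.46 (snr-2), -0.28 (snr-5), -0.53 (snr-6), -0.11 (snr-7), -0.31 (rsp-1), -0.15 (rsp-4), -0.26 (rsp-5), -0.32 (rsp-6), -0.29 (prp-21), -0.66 (prp-39), -0.17 (rnp-1), -0.63 (rnp-2), -0.71 (rnp-3), -0.28 (rnp-4), -0.70 (rnp-6), -0.35 (rnp-8), -0.46 (rnp-9), -0.29 (uaf-1), -0.59 (uaf-2), -0.89 (sftb-2), -0.46 (sftb-6), -0.0024 (rsr-1), -0.18 (snrp-40.1), -0.14 (lsm-4) and -0.38 (repo-1). Without single libraries, genes called higher numbered 1359 to 2897 and lower 1424 to 3257, and members 5 to 16 and 3 to 8; fewer samples are then tested. Values near 0 changed sign without single libraries (rsp-7 -0.16 to 0.090, rsp-8 -0.15 to 0.17, prp-4 -0.15 to 0.13, prp-6 -0.16 to 0.080, snr-4 -0.26 to 0.089). They also did so with DESeq2 size factors in edgeR or in DESeq2 (rsp-7 0.00998 and 0.00994, rsp-8 0.0234 and 0.0236, prp-4 0.0349 and 0.0351, prp-6 0.000261 and 0.000381), with upper-quartile factors (snr-4 0.000346, prp-4 0.00876), without rRNA genes (rsp-8 0.0052, prp-4 0.023), with 2 libraries left out, chosen after seeing the data (rsp-8 0.13, prp-6 0.10), and with length trends removed, alone or with the replicate block (rsp-7 0.18 and 0.19, rsp-8 0.068 and 0.094, prp-4 0.17 and 0.16, prp-6 0.44 and 0.45, prp-19 0.10 and 0.11, prp-31 0.039 and 0.046); the cause was not tested. limma-voom kept every member's call. Deviations from the group mean correlated at 0.46, 0.44 and -0.07 between same-numbered libraries, and at -0.51 to 0.33 between the others. The labels name no batch, and whether libraries of the same number share one was not tested. With the replicate block 3230 genes were higher and 3713 lower, among them 18 and 9 members. With length trends removed as well 3863 genes were higher. Each member had at least 76 counts in every library. Counting error weighs most on members with few counts, such as prp-40, rnp-9 and prp-18, and its share of their spread was not measured.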
